A study of Drosophila melanogaster with 2 samples.

Results

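Asymmetric cell division gives the daughters of one cell different fates, and the genes described here are the 10 that place, carry or read the determinants around Numb. They were taken by name from the Ensembl annotation of the fly genome: numb, pon, neur, spdo, pros, mira, brat, baz, insc and l(2)gl, 10 of 13968 protein-coding genes on the chromosome arms. For each gene the window was the annotated gene with 5 kb to either side. The data were deposited peak lists of the transcription factor Pox neuro (Poxn), a paired-domain protein known for specifying chemosensory organs, from chromatin immunoprecipitation and sequencing. The material was whole embryos of Drosophila melanogaster collected over 0 to 24 h, from a strain with an insertion that tags Poxn with green fluorescent protein, and the 2 libraries were biological replicates of 1 group. The sample descriptions name an antibody against the tag, whereas the antibody field names Poxn itself. Without a second group there was nothing to test between groups, so counts are given as descriptions beside the share of all protein-coding genes. In whole embryos, strong binding in few cells and weak binding in many cells cannot be told apart.

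When a neural stem cell or a sense organ precursor divides, the Par proteins at one pole drive fate determinants to the other, so that only one daughter inherits them. Numb, inherited by one daughter, holds back Notch signalling there by acting on the membrane protein Sanpodo, while the ubiquitin ligase Neuralized activates the ligand Delta. In neural stem cells the adaptor Miranda carries Prospero and Brat into the smaller daughter. Chemosensory and mechanosensory organs of the fly are built by such divisions.

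The list used as the main set was made from both replicates and thresholded by the authors on the irreproducible discovery rate (IDR). It held 1488 peaks with a median signal of 81.2. Signal is the authors' own enrichment value per peak, of unstated normalisation, so it ranks peaks within a list and is not compared between lists. The ranked list from which the main set came held 146020 candidates with a median signal of 16.8. Replicate 1 alone gave 800 thresholded peaks and replicate 2 alone gave 979. The number of reads per library is unknown here, and with it how far depth limits detection. The control experiment to which the labels refer was not analysed here.

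Of the 10 genes, 1 had a main-set summit within 500 bp of an annotated transcription start, namely numb, where 7.72% of all protein-coding genes did. The replicates alone each gave the same gene and no other, against 4.37% of all genes in replicate 1 and 6.17% in replicate 2. Main-set peaks overlapped the windows of 4 genes, numb, brat, baz and pros, against 23.4% of all genes counted in the same way. Within the annotated gene itself, with no flank, numb, brat and baz had a peak, against 7.78% of all genes, a share not split by gene length. The genes were long, with a median of 16.9 kb against 2.16 kb for all protein-coding genes, and a longer window meets more peaks. The 4 genes with a peak were the 4 of at least 20 kb, a class in which 36.7% of all genes had one. None of the 3 genes of 5 to 20 kb had a peak, where 29.6% of all genes of that length did, and none of the 3 shorter genes, where 20.6% did. With 10 genes in all, these counts carry little precision.

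The 4 windows held 6 main-set peaks. The sequence around 5 of their summits is given first, outside annotated exons, to show what the peaks share or do not share in sequence. The window of the sixth, in baz, is exonic, and those of Irbp and mgr and of AsnRS were trimmed at exons. All are on the plus strand of dm6, from RefSeq Release 6 of the genome, and capitals mark matches on either strand to the words TGGGAA and CGATA and, in numb only, both arms of an inverted repeat. The stretches are chr2L:9449518-9449718 for numb, chr2L:19165065-19165265 for brat, chrX:17170446-17170646 for baz, chr3R:11409876-11410046 for the peak beyond pros and chr2L:19131955-19132099 for that upstream of brat, at AsnRS, where the leading capitals are the end of a match cut by the trimming.
numb: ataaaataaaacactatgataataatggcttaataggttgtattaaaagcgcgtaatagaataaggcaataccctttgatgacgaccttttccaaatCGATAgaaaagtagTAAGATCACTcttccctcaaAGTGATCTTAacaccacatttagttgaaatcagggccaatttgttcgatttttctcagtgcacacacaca
brat: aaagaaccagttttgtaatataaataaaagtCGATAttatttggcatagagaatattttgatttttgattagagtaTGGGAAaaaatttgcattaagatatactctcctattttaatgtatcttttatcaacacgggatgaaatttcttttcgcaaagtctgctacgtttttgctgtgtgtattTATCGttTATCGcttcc
baz: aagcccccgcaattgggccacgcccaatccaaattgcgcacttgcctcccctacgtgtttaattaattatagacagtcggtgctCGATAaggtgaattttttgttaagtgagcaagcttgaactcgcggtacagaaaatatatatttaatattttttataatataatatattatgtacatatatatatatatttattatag
Irbp and mgr, beyond pros: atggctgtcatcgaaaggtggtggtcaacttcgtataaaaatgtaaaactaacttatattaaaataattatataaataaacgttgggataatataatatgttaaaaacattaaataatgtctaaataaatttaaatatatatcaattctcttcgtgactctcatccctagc
AsnRS, upstream of brat: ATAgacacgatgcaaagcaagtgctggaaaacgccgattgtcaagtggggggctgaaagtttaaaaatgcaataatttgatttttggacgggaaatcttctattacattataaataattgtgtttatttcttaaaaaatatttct

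The determinant gene numb (FBgn0002973) carried the strongest of the 6 peaks. It lies on the plus strand of 2L from 9437469 to 9464184 and has 3 annotated transcripts from 2 starts, numb-RB at 9437469 and the internal start of numb-RA and numb-RD at 9449830. The main-set peak at 2L 9449466 to 9449769 had a signal of 169 and its summit 212 bp upstream of the internal start, within an intron of numb-RB. Its signal was 81.3 in the ranked list of replicate 1, where it stood 214th of 104869 candidates, and 89.0 in that of replicate 2, where it stood 247th of 104909. The summits of both replicates lay within 12 bp of that of the pair, and the peak was in both thresholded lists. It ranked 217th of the 1488 main-set peaks, at or above 85.5% of them. The 95% exact binomial interval of 83.6 to 87.2 treats the peaks as independent draws. It does not measure how the rank of the numb peak varies between replicates. The upstream start numb-RB had no main-set peak. Its highest candidate had a signal of 27.5 in the pair list, 10.4 in replicate 1 and 17.2 in replicate 2, all within 42 bp of the start. The next highest candidate of the 37 in the numb window had a signal of 32.1 in the pair list, so 1 site stood clear of the rest of the locus.

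Among the 821 main-set promoter peaks the numb peak was 155th by signal. Its nearest neighbours in that order were bves, which encodes a Popeye-domain protein, with a signal of 171.8, Sans, a scaffold protein gene, with 169.5, RpL32, a ribosomal protein gene, with 168.3, and for, which encodes a cyclic GMP-dependent kinase, with 167.4. These 4 peaks were also in both replicate lists. The closest main-set peak outside the window lay 5.96 kb from the numb gene, 45 bp upstream of a start of scat, which encodes a vesicle tethering protein, with a signal of 124.1.

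**Figure D1:**
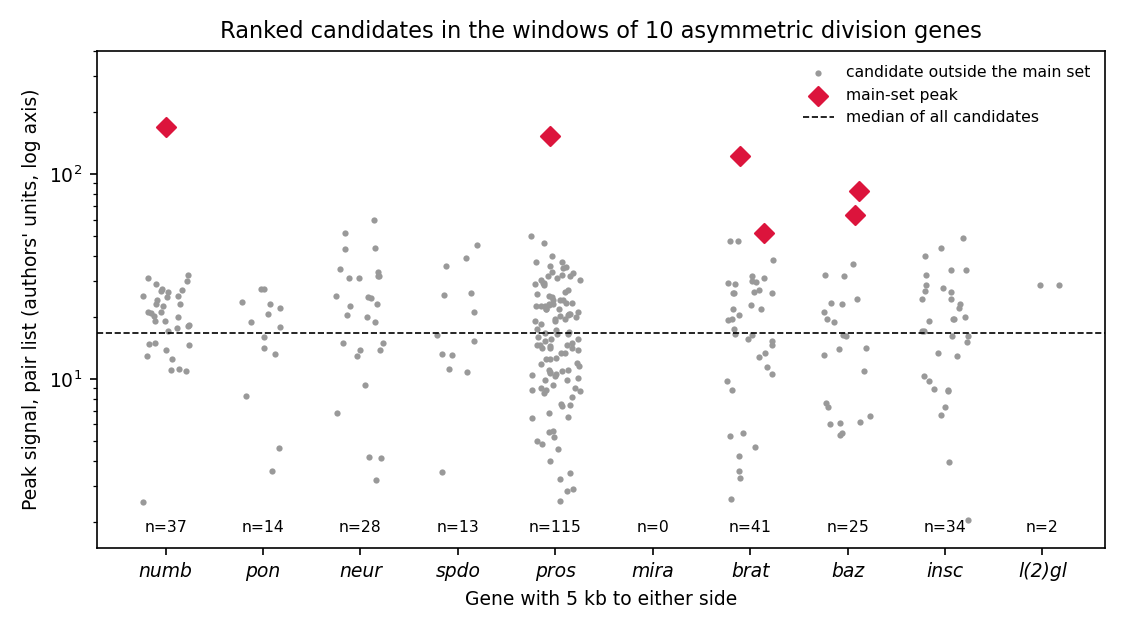
Each point is 1 candidate of the pair's ranked list in the window of 1 gene; the vertical axis is the authors' peak signal on a log scale, red diamonds are the 6 main-set peaks and the dashed line is the median of all 146020 candidates. The peaks of numb (169), the pros window (153.6) and brat (123.2) stand above all other candidates, mira has none and l(2)gl has 2.

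brat (FBgn0010300), which encodes a translational repressor that is inherited by the smaller daughter, had 1 main-set peak in the gene. The gene runs along the plus strand of 2L from 19133816 to 19179758, with 5 transcripts from 3 starts. The peak at 2L 19165013 to 19165316 lay in an intron, with its summit 702 bp upstream of brat-RF, the most downstream of the starts. Its signal was 123.2 in the pair, 73.0 in replicate 1 and 48.7 in replicate 2, and it was in both thresholded lists. As a main-set peak it ranked 383rd, but it stood 264th among the candidates of replicate 1 and 691st among those of replicate 2, so the replicates placed it less alike than the numb peak. None of the 3 brat starts had a main-set summit within 500 bp, and their highest candidates there had signals of 29.1, 31.2 and 22.0 in the pair list.

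A weaker peak, at 2L 19131847 to 19132150, fell within the 5 kb upstream of brat. Its summit was 1817 bp upstream of the first brat start but 45 bp upstream of a start of AsnRS, which encodes asparaginyl-tRNA synthetase, and within 500 bp of a start of the dynactin subunit gene DCTN6-p27. The signal was 51.8, rank 1400 of 1488. It was 21.0 in replicate 1 and 35.2 in replicate 2, and the peak was in neither thresholded list and not in the conservative list. It therefore counts for the brat window by position only and sits at the promoter of another gene.

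baz (FBgn0000163), which encodes the Par-3 scaffold of the apical complex, had 2 main-set peaks, both far from its start. The gene lies on the plus strand of X from 17160006 to 17200728, and its 4 transcripts share 1 start. The peak at X 17178578 to 17178881 had its summit 18724 bp downstream of that start, in a 5′ UTR exon of 2 of the 4 transcripts and in an intron of the others. Its signal was 83.1 in the pair, 43.0 in replicate 1 and 38.4 in replicate 2, with both thresholded lists holding it. The summit lay 104 bp before that of the pair in replicate 1 and 65 bp before it in replicate 2, farther apart than for numb. The second, at X 17170394 to 17170697, lay in an intron 10540 bp downstream of the start, with a signal of 63.4 in the pair, 37.9 in replicate 1 and 25.02 in replicate 2. Neither replicate's thresholded list held it, though the conservative list of the pair did. Within 500 bp of the baz start the pair list had no candidate, replicate 1 had 1 of signal 8.59 and replicate 2 had none.

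pros (FBgn0004595), which encodes the homeodomain protein that sets the fate of the smaller daughter, is the longest of the 10 genes, on the plus strand of 3R from 11328480 to 11407627. Its window held 115 candidates of the pair list, more than any other, but no main-set peak fell in the gene. The one peak of the window, at 3R 11409811 to 11410114, began 2184 bp beyond the 3′ end of pros and 37175 bp from its nearest start, measured to the summit. The summit lay 84 bp upstream of a start of Irbp, a Ku subunit gene of DNA end joining, and 88 bp upstream of a start of mgr, a prefoldin subunit gene, which are transcribed away from each other. Its signal was 153.6 in the pair, 74.3 in replicate 1 and 78.7 in replicate 2, and it was in both thresholded lists. All 4 pros starts had a candidate within 500 bp in the pair list, with signals between 11.99 and 32.2. Those values are far below the main-set median of 81.2, while the median highest candidate over all protein-coding starts was 23.4.

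**Figure D2:**
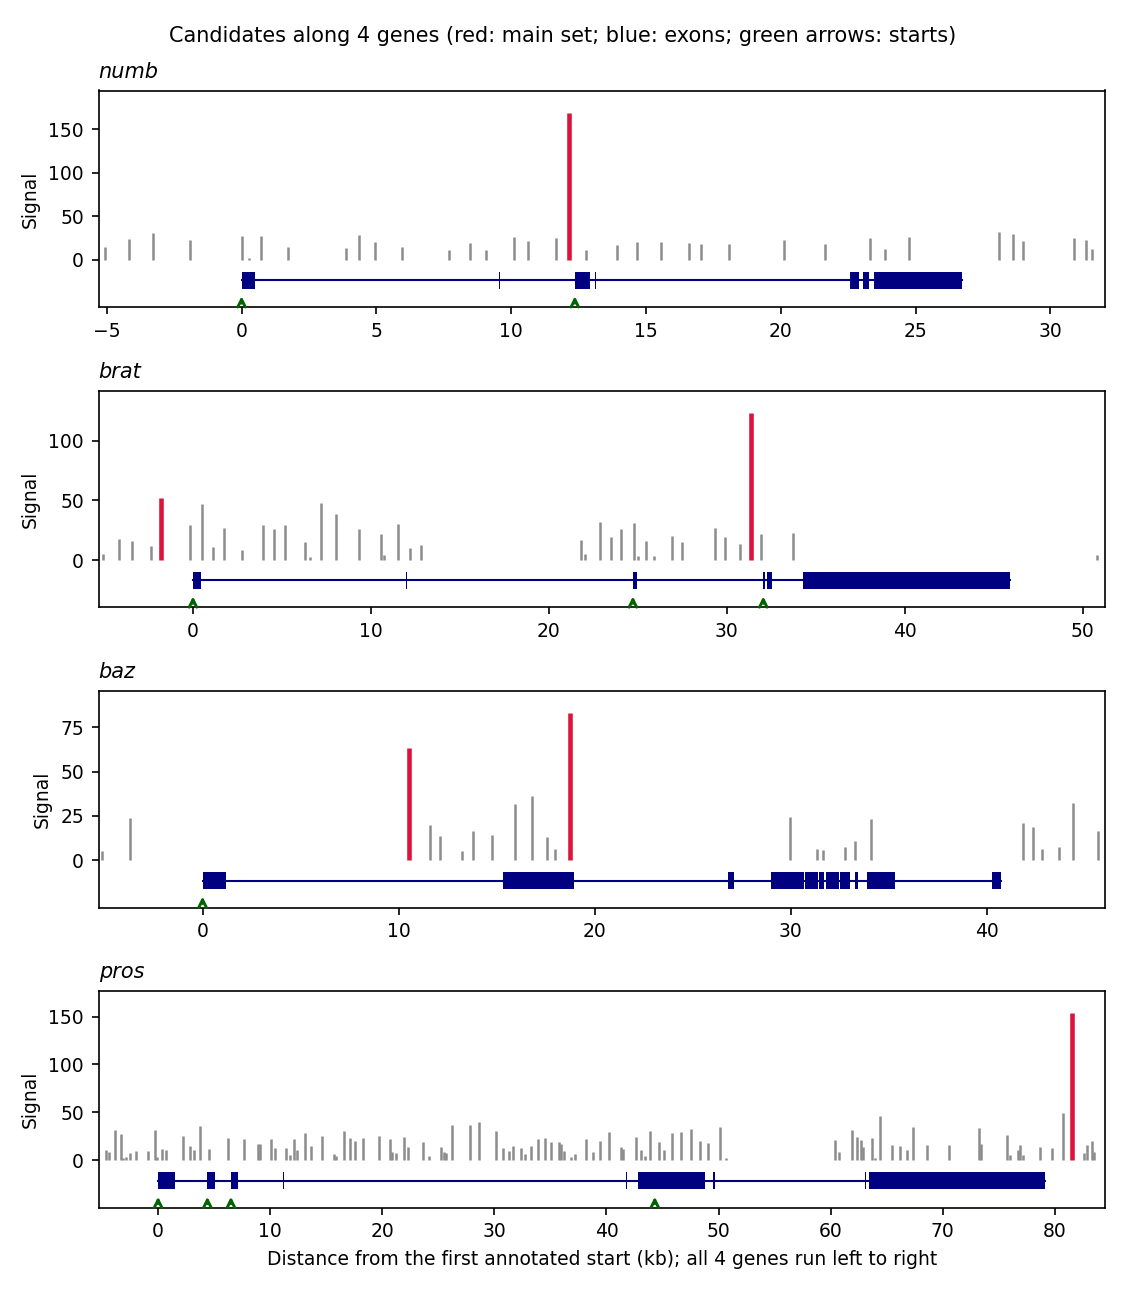
Candidates of the pair's ranked list along 4 genes, with the distance from the first start in kb across and the authors' signal up; red lines are main-set peaks, grey lines other candidates, blue boxes exons of any transcript and green arrows starts. The red line of numb stands 212 bp upstream of the internal start, that of brat 702 bp upstream of the last start, both of baz inside the gene, and that of pros beyond its 3′ end.

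Of the 6 peaks, 4 were in the thresholded lists of both replicates and 2 in neither. In the whole main set, 39.2% were in both lists and 27.4% in neither. The 4 doubly held peaks were those of numb, brat, the baz UTR exon and the pros window, and each replicate's list held these sites in the windows and no other. The lowest of the 6 in the pair list, at AsnRS with 51.8, was also lowest in replicate 1, while in replicate 2 the baz intron peak was lowest with 25.02. Over the 1466 main-set peaks with a candidate in each replicate, the median signal was 39.7 in replicate 1 and 45.5 in replicate 2. The numb, brat and pros window peaks were above both medians, and the remaining 3 were not above both.

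**Figure D3:**
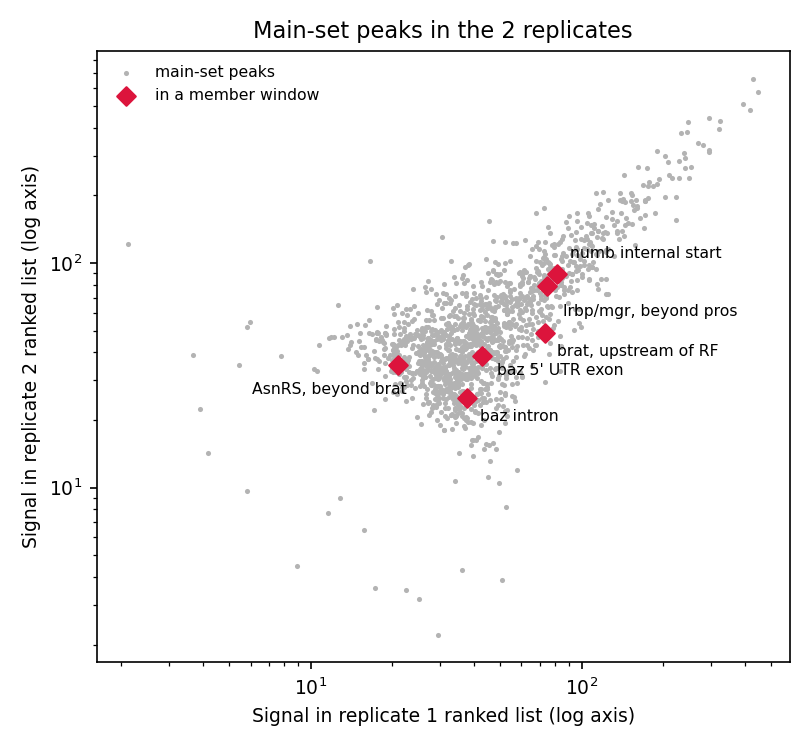
Signal of each main-set peak in the ranked list of replicate 1 (across) and replicate 2 (up), both on log axes; grey points are main-set peaks and red diamonds the 6 peaks in the windows. The numb peak (81.3 and 89.0) and the Irbp and mgr peak (74.3 and 78.7) lie in the upper part of the cloud, and the AsnRS peak (21.0 and 35.2) and the baz intron peak (37.9 and 25.02) in its lower part.

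The other 6 genes had no main-set peak in their windows and are described from the ranked lists. neur (FBgn0002932), the ubiquitin ligase gene on the minus strand of 3R from 9020348 to 9039471, came closest. A candidate at 3R 9034890 to 9035193, in an intron 1311 bp upstream of the neur-RA and neur-RB start, had a signal of 51.6 in the pair, 24.4 in replicate 1 and 26.9 in replicate 2. Its −log10 IDR was 1.86, where the lowest value in the main set was 2.00. Another, at 3R 9031905 to 9032208 and 1674 bp downstream of the same start, had a higher pair signal of 59.6 but a −log10 IDR of 1.42. It ranked 11503rd in replicate 1, with a signal of 19.2, and 1096th in replicate 2, with 38.1, where the first candidate ranked 3674th and 2608th. Of the main-set peaks, 267 had a lower signal than this candidate, so the main set was not cut on pair signal alone. Just inside the threshold among the 6 peaks was the AsnRS one, with a −log10 IDR of 2.13. The upstream start of neur-RC, neur-RD and neur-RE, 295 bp from a start of the transcription elongation gene hyx, had no candidate within 500 bp in any of the ranked lists.

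pon (FBgn0025739), which encodes the adaptor that localises Numb, lies on the plus strand of X from 4636318 to 4639112 and had 14 candidates with signals of at most 27.5. At its single start the highest candidate had a signal of 20.8 in the pair, 13.8 in replicate 1 and 7.17 in replicate 2. spdo (FBgn0260440), the gene of the membrane protein through which Numb limits Notch, lies on the plus strand of 3R from 30476684 to 30478849. Its strongest candidate, at 3R 30477778 to 30478081 and 1246 bp downstream of the start, had a signal of 44.9. Within 500 bp of its start the values were 39.0 in the pair, 16.0 in replicate 1 and 24.6 in replicate 2, and the pair and replicate 2 values were the highest at any member start after the numb internal start. Neither gene thus had more at its promoter than candidates outside the main set.

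insc (FBgn0011674), which encodes the adaptor that links the Par complex to spindle orientation, lies on the minus strand of 2R from 20821262 to 20836028. A candidate at 2R 20825320 to 20825623 was its strongest, at a signal of 48.8. The next, at 2R 20832334 to 20832637 with 43.8, lay 68 bp upstream of a start of sktl, a lipid kinase gene. The insc start itself coincides with a sktl start, so the 19.3 in the pair, 15.1 in replicate 1 and 10.4 in replicate 2 found there cannot be assigned to either gene. l(2)gl (FBgn0002121), the tumour suppressor and target of atypical protein kinase C, lies on the minus strand at the end of 2L from 9839 to 21376. In the pair list it had 2 candidates in its window, both upstream of the gene, at 2L 22238 to 22541 with a signal of 28.8 and at 2L 23693 to 23996 with 28.7. Replicate 2 also had 2, with signals of at most 21.8. Replicate 1 had 5, the strongest beyond the 3′ end at 2L 7706 to 7985 with a signal of 25.8, rank 2909, and 1 in an intron with 7.76. Neither of its starts had a candidate within 500 bp in the pair list or in either replicate.

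mira (FBgn0021776), which encodes the cargo adaptor of Prospero and Brat, was the one member with no candidate in its window in the pair's ranked list of the main set. It lies on the minus strand of 3R from 19931799 to 19935120. That list was empty over 19.8 kb, from 3R 19926273 to 19946093, a stretch with 3 protein-coding genes, CG4459, mira and CG46042. Only 182 of 119515 gaps between candidates on the major arms (0.152%) were at least as long, and the median gap was 442 bp. The list of replicate 1 was empty over 19.8 kb there too. Replicate 2 differed, with 11 candidates in the stretch and signals of 8.03 to 22.1, the highest ranking 5825th in its list. In the reference none of the stretch was unknown sequence and 13.2% was masked as repeat. In the conservative ranked list of the pair the empty stretch was 11.5 kb long and ended at 3R 19937749, inside the mira window. The absence of candidates thus differed between the lists, and its cause was not tested.

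Taken start by start, the 10 genes have 19 annotated starts for 40 transcripts, and 6 of them have more than 1, as do 26.5% of all protein-coding genes. In the pair list 13 of the 19 starts had a candidate within 500 bp, against 74.4% of the 19630 starts of protein-coding genes. The highest candidate at those starts had a median signal of 29.1, against 23.4 over all starts. For replicate 1 the numbers were 12 starts and a median of 16.1, against 64.5% and 14.0 over all starts. For replicate 2 they were 11 starts and a median of 13.4, against 61.4% and 14.1. The rank of a start within its list also varied between replicates. At the brat-RB and brat-RC start the highest candidate of replicate 1, 91 bp downstream, had a signal of 24.1 and ranked 3874th. That of replicate 2 had its summit 282 bp downstream, with a signal of 5.10 and rank 91094. A further replicate 2 candidate, 68 bp downstream and so closer to the replicate 1 summit, had 4.74 and rank 93016. The highest candidate at the spdo start ranked 22652nd in replicate 1 and 3728th in replicate 2. Over the windows as a whole, 309 candidates fell in 346 kb, or 0.892 per kb, against 1.04 per kb on the arms. Of these 6 (1.94%) were in the main set, against 1.02% of all candidates.

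**Figure D4:**
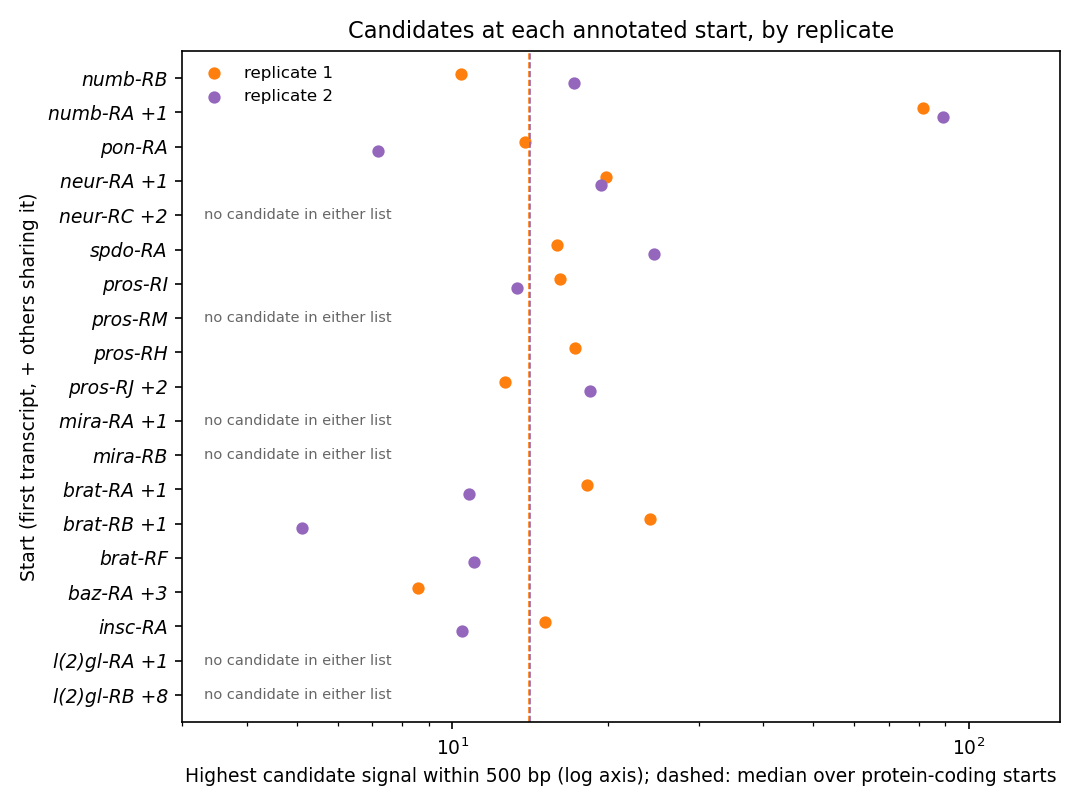
Highest candidate signal within 500 bp of each of the 19 starts, on a log axis, in the ranked list of replicate 1 (orange) and replicate 2 (purple); dashed lines are the medians over all protein-coding starts (14.0 and 14.1). The start shared by numb-RA and numb-RD stands alone at 81.3 and 89.0, and 6 starts have no candidate in either list.

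The rest of the machinery was followed with a list of 33 further genes. Of these, 4 had a main-set summit within 500 bp of a start, against the 7.72% of all genes given above. A peak in the gene or within 5 kb was found for 13 of the 33, against 23.4% of all genes. Within the gene itself, with no flank, 7 of the 33 had a peak, against 7.78% of all genes. Of the 13, 3 were genes under 5 kb, 7 of 5 to 20 kb and 3 of 20 kb or longer. How many of the 33 fall in each class is not given, so the part of gene length in these counts was not tested. The Notch group (1 of 8 genes) was represented at promoters by AP-2alpha, a subunit of the clathrin adaptor through which Numb acts. Its peak at 2L 414746 to 415049, 121 bp upstream of the start, had a signal of 113.2 in the pair, 55.4 in replicate 1 and 61.4 in replicate 2, and was in both thresholded lists. The polarity group (1 of 5) had dlg1, the gene of a basolateral scaffold, with 93.6 in the pair at 486 bp upstream of dlg1-RK, 37.0 in replicate 1 and 57.1 in replicate 2, and only the list of replicate 2 held it. The mitotic kinases and phosphatases (2 of 6) had aurA, the Aurora A kinase gene, and mts, the catalytic subunit gene of protein phosphatase 2A. The aurA peak, 158 bp upstream of its start, had a signal of 59.9 in the pair, 32.4 in replicate 1 and 25.4 in replicate 2, and only the list of replicate 1 held it. The mts peak, with 58.2 in the pair, lay 16 bp from a start of Rack1, a ribosome-associated scaffold gene, and 351 bp upstream of mts-RB, and neither replicate's list held it.

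No main-set promoter peak was found for the 7 spindle orientation genes, the 6 sense organ precursor genes or stau. Main-set peaks in the gene or flank without one at a promoter were found for par-6, Cdc42 and scrib among the polarity genes, Galphai and Gbeta13F among the spindle genes, flfl, Nak, mib1 and ttk. Nak, named for its binding to Numb, had 2 such peaks. Whether the peaks of these genes lay at starts of other genes was not examined. Of the 33 genes, the thresholded list of replicate 1 gave 2 with a promoter peak, against 4.37% of all genes, and that of replicate 2 gave 3, against 6.17%. Those of replicate 1 were AP-2alpha and aurA, and those of replicate 2 were AP-2alpha, dlg1 and par-6, the last of which had no promoter peak in the main set. AP-2alpha was the only one of the 4 in both lists.

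The windows of 100 bp to either side of the 6 summits had few of the 7 words searched on both strands. GTCACGC, the core of the sites of vertebrate Pax2, Pax5 and Pax8, was in none of the 6, and in 1.17% of all main-set windows and 1.21% of other candidates. TATCGATA, the element bound by DREF, was also in none of the 6, and in 2.62% of main-set windows against 0.420% of other candidates. TGGGAA, the core bound by Su(H), was in the brat window, 24 bp before the summit, and in 9.04% of main-set windows against 12.3% of other candidates. GAGAGAG, bound by the GAGA factor, matched 3 times with overlap in the window of the baz UTR peak, starting 70 to 74 bp after the summit. The replicate summits of that peak lay 104 and 65 bp before that of the pair, so the matches were farther from them. GAGAGAG was in 3.73% of main-set windows against 2.47% of other candidates. CAGCTG and CACGTG, both E boxes, and GGTCACA, as searched here for a core promoter motif, were in none of the 6. Their shares in main-set windows were 8.14%, 2.07% and 2.69%, against 10.6%, 2.81% and 1.75% in other candidates. The absence of a word says only that these letters are not in these windows.

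In 5 of the 6 windows the letters CGATA were found, a word chosen after the sequences had been seen and contained in TATCGATA, against 26.5% of main-set windows and 20% of other candidates. In numb the match began 3 bp before the summit, in the baz intron 16 bp before it, and brat had 3 matches. The match of the Irbp and mgr window lies beyond the printed stretch. The numb window also held an inverted repeat of 10 bp arms, TAAGATCACT and AGTGATCTTA, around a 10 bp spacer, starting 11 bp after the summit. Repeats with arms of at least 10 bp and spacers of up to 30 bp were in 3.31% of main-set windows, 48 of 1449, and in 1.41% of other candidates, and this search too was made after the sequence had been seen. The GC content of the 6 windows was between 26.4% and 36.3%, against a median of 34.8% for the main set and 46.3% for other candidates.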

How the data were processed

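Poxn-eGFP chromatin immunoprecipitation from whole embryos was measured in 2 libraries of 1 group, with fragments of 200 to 800 bp, per the labels. The authors deposited lists of peaks on dm6, per the labels, for each replicate and for the pair, as ranked and thresholded lists. The pair also has conservative versions. The signal per peak is the authors' deposited value, of unstated normalisation. The score in the deposited lists, at most 1000, was scaled by the authors from the IDR. The −log10 of the global IDR was deposited by the authors for each candidate. The sources used here do not give the aligner, the peak caller, the IDR threshold or the reads per library. Signal was used only to rank peaks within a list.

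Genes came from Ensembl release 115 on BDGP6 and sequence from RefSeq Release 6, and the coordinates of 10 of the 10 members were equal in both. A promoter was 500 bp to either side of any start, a peak counted for a window from an overlap of 1 bp, and words were searched over 100 bp to either side of the summit. Summits within 500 bp of several starts counted for each gene. For a peak of the pair, the value in a replicate is that of the candidate overlapping it most. For a start, the value is the highest signal within 500 bp in each list separately, so it need not be the same site. Python 3.11.15, pandas 2.3.3 and pysam 0.24.0 were used. The assignment code was checked with artificial peaks placed at promoter and window edges, and 200 of 200 genes were returned. This checks the boundaries only, not how accurate assignment is in real data.

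The members, the 33 further genes and the 7 words were chosen with earlier results of these data known, and CGATA and the inverted repeat were searched after the sequences were seen. The text names all members, every main-set peak in a window, the strongest candidates of members without one, listed genes with a promoter peak, genes nearest to those peaks, and 4 neighbours of numb by signal. No test was run, since there is 1 group. Alternatives were other lists, each replicate alone, a stricter IDR, higher signal, other promoter and window sizes, and nearest-gene assignment.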

Additional observations from a re-analysis of the deposited data

How the results depend on the processing

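Recomputing the 5 counts and ranks reported gave 38 values. Of these, 29 were within 1.5 times the count given or, for the percentile of numb, within its interval of 83.6 to 87.2. That interval served as a yardstick only and does not measure uncertainty in the rank. The other 9 values follow. The numb peak stood at or above 85.5% of its list, against 76.3% without replicate 1, 74.5% without replicate 2 and 81.2% among promoter peaks only. A promoter of 1000 bp counted 2 members in place of 1, adding brat. A −log10 IDR of at least 3 left 3 of the 6 peaks in the windows, those of numb, brat and pros. Of the 33 further genes, 4 had a promoter peak, against 2 without replicate 2 (the 3 without replicate 1 are among the 29 values). That count was 1 at a −log10 IDR of at least 3, namely AP-2alpha, and 2 at or above the median signal. It was also 2 with a promoter of 250 bp. The numb promoter peak was called in all settings of the member promoter count. Several of them could not have dropped it, given its signal, its −log10 IDR of 3.87 and its 212 bp to the nearest start. Each list has its own threshold and length, so percentiles in different lists are not changes. No paired analysis was possible because the 2 libraries form 1 group. The number of reads per library is unknown here, so an empty window or start cannot be told apart from one below detection.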

Other observations

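Main-set peaks outside the windows lay at varied distances from the members. The nearest one was 11.5 kb from baz, at RpS5a with a signal of 63.1, and 14.1 kb from pros, at Sptz with 111.9. For the members with no peak of their own it was 22.6 kb from mira, 26.0 kb from spdo, 27.2 kb from neur, 27.8 kb from pon, 48.4 kb from insc and 246.1 kb from l(2)gl. For pon that peak, at CG3009, had a signal of 283.4, above all 6 peaks in the windows.

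Other candidates in brat fell short of the main set, whose lowest −log10 IDR was 2.00. The candidate at 2L 19140878 to 19141181 had a signal of 47.4 and a −log10 IDR of 1.53. Its signal was 14.1 in replicate 1, rank 32444, and 35.0 in replicate 2, rank 1286. That at 2L 19134195 to 19134498, 531 bp downstream of the first start, had 47.3 and 1.48. Its signal was 23.6 in replicate 1, rank 4303, and 18.1 in replicate 2, rank 13416.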
